A study of Mus musculus with 55 samples.

Results

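Kinesins are motor proteins that walk along microtubules or take their ends apart. The transport kinesins of the kinesin-1, kinesin-2 and kinesin-3 families carry vesicles, organelles and RNA, whereas the division kinesins, among them kinesin-5, kinesin-6, kinesin-10 and kinesin-13, build the spindle, move chromosomes and organise the midzone where the cell is cut. A fully grown oocyte (FGO) has stopped transcribing and lives on stored mRNA, and it must assemble its meiotic spindle without centrosomes when it matures to the metaphase II (MII) egg, a period in which many stored mRNAs lose their poly(A) tails or are degraded.

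The kinesin genes described here were all genes of the mouse oocyte count tables whose symbol is Kif followed by a number and at most 1 letter from a to c, which gave 37 of 51734 genes. They were sorted by textbook role into 15 transport, 13 division, 6 cilium-linked and 3 atypical members. Each library was made from a single oocyte with an oligo-dT primed kit, so a level is a share of the polyadenylated mRNA of 1 oocyte, and a change of mRNA amount and a change of poly(A) tail cannot be told apart. The study set wild-type FGOs (18 libraries) beside FGOs with amino acid substitutions in the ADD domain, the part of the DNA methyltransferase DNMT3A and of its cofactor DNMT3L that reads unmethylated histone H3. The Dnmt3L-ADD FGOs carried the D124A allele of Dnmt3L on both chromosomes and wild-type Dnmt3a (8 libraries). The Dnmt3a-ADD FGOs were homozygous for the ADA allele of Dnmt3a and wild type for Dnmt3L (8 libraries). The double ADD mutant FGOs were homozygous for both alleles (8 libraries). Wild-type MII oocytes (10 libraries), were the only group at another stage, and the methods describe inhibin antiserum and human chorionic gonadotropin as given to females before such oocytes are collected. FGOs came from the punctured ovaries of adult females of 10 to 12 weeks and were pooled at collection. The labels name no animal, so that several oocytes of a group may come from 1 female and p-values measure only the spread between these oocytes. Since the alleles are amino acid substitutions, the count of Dnmt3a or Dnmt3L does not check the genotype.

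Total counts ran from 7832458 to 23739871 per library. All 10 oocyte markers, such as Zp3 and Gdf9, were present in every library, but their summed level, in CPM (the count as a share of the library's scaled total), moved with the groups. It had a median of 10930 CPM in wild-type FGOs (range, 8278 to 13195), 9322 CPM in Dnmt3L-ADD, 8593 CPM in Dnmt3a-ADD (7817 to 9961), 12474 CPM in the double mutant (12039 to 13655) and 8818 CPM in MII oocytes. Of the 10 markers, 6 were called lower in Dnmt3L-ADD, 7 lower in Dnmt3a-ADD, 2 higher in the double mutant and 5 lower in MII. Of all genes, 3.06%, 7.61%, 5.51% and 22.6% were called in those directions. Markers of ovarian somatic cells were low and moved with the groups as well. The 7 theca and interstitial markers summed to a median of 31.0 CPM in wild-type FGOs (range, 14.6 to 148), 14.7 CPM in Dnmt3L-ADD, 13.8 CPM in Dnmt3a-ADD, 4.07 CPM in double mutant FGOs (2.09 to 6.06) and 2.76 CPM in MII oocytes (2.18 to 12.5). From the study's read summary the libraries were divided here by the share of mapped reads, under 80% or at least 80%. The wild-type FGOs held 8 libraries under and 10 above this limit, all 8 double mutants lay under it, all 8 Dnmt3L-ADD libraries lay above it, and Dnmt3a-ADD (3 under, 5 above) and MII (3 under, 7 above) were mixed. Between the wild-type sets, 25.4% of the genes tested differed, and so did 9 of 31 kinesins. Values within these sets are therefore given beside many of the results, and the part of somatic RNA in them was not tested.

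Which kinesins a wild-type FGO stores was read from the CPM per kilobase of exon (RPKM), a scale on which genes can be compared. Of the 37 members, 17 had a mean of at least 10 RPKM, 10 lay between 1 and 10, 4 between 0.1 and 1, and 6 under 0.1. The store was dominated by division motors. The 13 division members held 73.5% ± 1.55 (SD, n = 18) of the summed kinesin RPKM, and 9 of them were in the highest class, beside 7 transport members and 1 cilium-linked member.

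Kif23 (chr9:61915905-61946774, minus strand, mm10), a kinesin-6 of the central spindle and a partner of Racgap1, was the most abundant at 106.5 ± 14.5 RPKM (18 libraries, 78.4 to 123). Kif4, a chromosome-bound motor of the midzone, followed at 96.5 ± 9.24 RPKM. The gap between Kif23 and Kif4 was smaller than the SD of Kif23, whereas both stood above all other kinesins. Kif14, a cytokinesis motor, had 62.8 ± 4.50 RPKM, and Kif20b, which acts in the completion of cytokinesis, had 55.8 ± 6.99 RPKM. Kif22, the chromokinesin that pushes chromosome arms from the poles, had 52.5 ± 9.30 RPKM. The first transport motor in the order was Kif17, a kinesin-2 known from dendrites and from the male germ line, at 50.5 ± 9.51 RPKM. These neighbours from Kif14 to Kif17, and Kif2c after them, were each separated by less than 1 SD.

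Kif2c, a kinesin-13 that depolymerises microtubules at kinetochores, had 46.8 ± 6.91 RPKM. Kif20a, the kinesin-6 that brings the chromosomal passenger complex to the midzone, had 39.2 ± 4.19 RPKM, and Kif11, the kinesin-5 that slides spindle microtubules apart, 31.8 ± 4.79 RPKM. Each of these levels lay more than 1 SD above the next one down. Kif2a, the kinesin-13 of spindle poles, stood at 21.9 ± 1.91 RPKM beside Kif3a, a subunit of the heterotrimeric kinesin-2, at 21.4 ± 1.89 RPKM. Kif5c, a kinesin-1 heavy chain, had 19.4 ± 4.12 RPKM, above its ubiquitous paralog Kif5b at 11.8 ± 3.13 RPKM. Kif5a, the neuronal kinesin-1, was close to absent, with 0 to 9 counts in the 18 libraries.

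The remaining members of the highest class were close together. Kif24, a kinesin-13 that restrains cilium formation, had 14.4 ± 0.994 RPKM, the endosomal motors Kif13b and Kif16b had 13.3 ± 2.48 and 12.9 ± 1.21 RPKM, and Kif1c, a vesicle and mRNA transporter, had 11.3 ± 6.31 RPKM. Below 10 RPKM the kinesin-8 pair Kif18a (8.88 ± 1.01 RPKM) and Kif18b (8.58 ± 0.734 RPKM), which dampen chromosome oscillation and trim astral microtubules, led the list with Kif26a (7.46 ± 4.51 RPKM), an atypical kinesin without motor activity. Kif1b, Kif3b, Kif9, Kif21b, Kif13a, Kif26b and Kif27 completed that class. Kif21a (0.900 ± 0.367 RPKM), Kif15 (0.863 ± 0.205 RPKM) and Kif3c (0.225 ± 0.0659 RPKM) headed the next class, which also held Kif1a. Kif7, Kif19a and Kif5a were the upper members of the lowest class, at 0.0935 ± 0.0567, 0.0853 ± 0.0841 and 0.0431 ± 0.0316 RPKM, and Kif6, Kif2b and Kif12 lay under them. Kif2b had no count in 15 and Kif12 none in 14 of the 18 wild-type FGO libraries, a depth at which a count of 0 allows up to 3 counts per library.

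**Figure D1:**
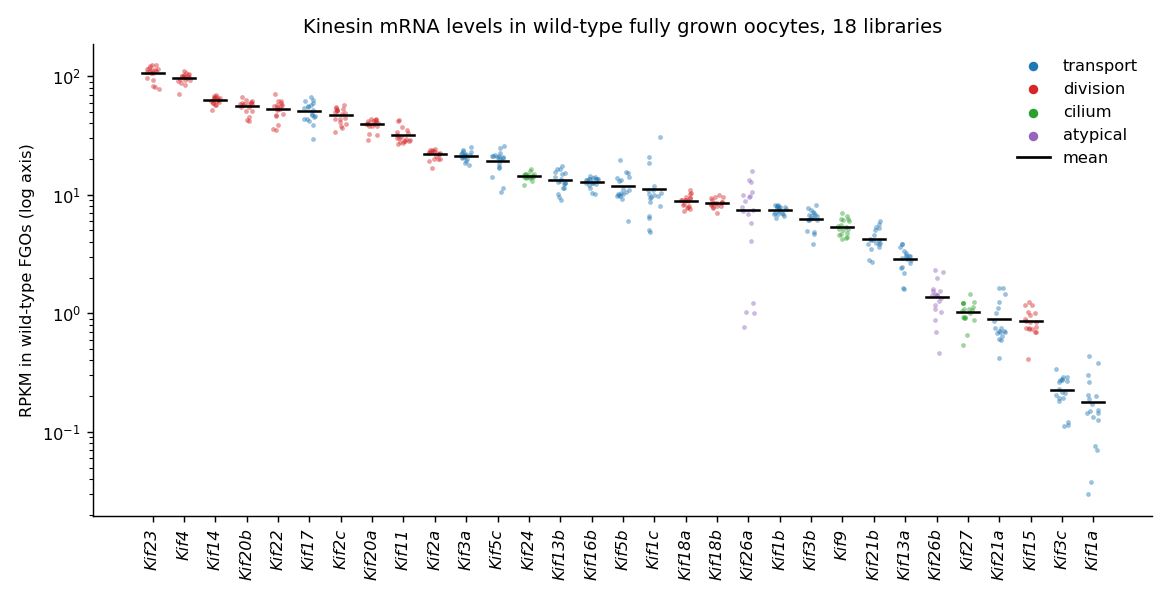
Levels of the 31 kinesins with a mean of at least 0.1 RPKM in wild-type FGOs (vertical axis, RPKM on a log axis), ordered by mean. Each point is 1 of 18 single-oocyte libraries, the bars are means and the colours are roles. Division motors take 9 of the 17 places above 10 RPKM, and Kif26a, Kif1c and Kif1a have the widest spread.

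Most of these transcripts varied little from oocyte to oocyte. The coefficient of variation over the 18 wild-type FGOs had a median of 13.6% for the 17 kinesins of the highest class, beside 12.5% for all 4917 genes of that class. Kif24 (6.92%) and Kif14 (7.17%) were the steadiest, and Kif1c (56.0%) was the most variable. Kif26a had a coefficient of 60.5%, since 4 libraries lay between 5.27 and 8.51 CPM and the other 14 between 28.3 and 111 CPM. The 4 low oocytes, replicates 4, 5, 6 and 8, belonged to the set with under 80% of reads mapped. Across the 18 oocytes the level of Kif26a went with the summed level of 9 stroma and smooth muscle markers (n = 18, Pearson r = 0.727, Spearman rho = 0.6 on the log2 scale with 0.1 CPM added, r = 0.54 without the 2 outermost libraries). That sum was almost wholly Myh11, with a median of 332 CPM, while Dcn, Col1a1, Col1a2 and Col3a1 had medians of 0.622, 0.582, 0.797 and 1.84 CPM and Lum of 0. Within the sets r was 0.566 (n = 8, under 80% mapped) and 0.42 (n = 10). Kif26a was not alone in this, since Kif23 (r = 0.888), Kif2c (r = 0.874) and Kif14 (r = 0.856) followed the same sum more closely and Kif20a (r = 0.725) and Kif17 (r = 0.703) about as closely (n = 18). Within the sets under and above 80% mapped r was 0.9 and 0.831 for Kif23, 0.659 and 0.17 for Kif2c, and 0.608 and 0.597 for Kif14. For Kif20a r was 0.94 and -0.417 and for Kif17 -0.048 and 0.19. Kif11 ran against the sum (r = -0.666, n = 18), with r of -0.841 and 0.834 within the sets. The sum differed between the sets, with medians of 277 and 397 CPM, and the cause of these correlations was not tested.

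The promoters of cell-cycle kinesins are known for paired elements, a CCAAT box and, closer to the start, a cell cycle homology region (CHR) with the letters TTTGAA. The 250 bases before the RefSeq start (GRCm38.p6) were available for 31 of the 37 members and were searched on both strands for these letters. TTTGAA occurred in 5 of 12 division kinesins (41.7%), in 1 of 11 transport kinesins (9.09%) and in 18.3% of all 27025 genes. CCAAT occurred in 7 of 12 division and 3 of 11 transport kinesins, beside 37.5% of all genes. Both were found in 5 of the 31 kinesins (16.1%), the division members Kif11, Kif14 and Kif22 and also Kif26b and Kif27, against 6.45% of all genes. The 80 bases before the start of the 2 division kinesins that hold both within that stretch are printed here 5′ to 3′ on the gene's strand, with the reverse complements of CCAAT and TTTGAA in capitals. A match is a run of letters and not a measured binding site.
Kif11 (chr19:37376302-37376381, plus strand): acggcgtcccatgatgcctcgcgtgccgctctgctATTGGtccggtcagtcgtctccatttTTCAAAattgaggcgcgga
Kif22 (chr7:127042421-127042500, minus strand): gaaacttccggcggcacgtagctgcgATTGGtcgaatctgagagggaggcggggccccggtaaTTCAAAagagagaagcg
In Kif11 the CCAAT box starts 45 and the CHR 19 bases before the start, and in Kif22 they start 54 and 17 bases before it. By the exon positions used for counting, Kif22 starts at 127042471, within the printed stretch, and Kif11 at 37376403, further downstream than the RefSeq start. The distances of both genes thus hold for the RefSeq start only. Both genes hold the letters in the same order. Both were in the highest class of levels in the FGO, as were 9 of the 13 division members. Kif26b and Kif27, which also hold both elements in 250 bases, had 1.39 and 1.03 RPKM.

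How the kinesin store changed from FGO to MII was asked in wild-type oocytes. At an adjusted p under 0.05 (edgeR quasi-likelihood test, Benjamini-Hochberg adjustment over 15784 genes), 15 of the 32 kinesins with enough counts differed between 10 MII and 18 FGO libraries, which is 46.9% of the members beside 39.1% of all genes. Of these, 3 were higher and 12 lower, beside 16.5% and 22.6% of all genes. With a fold change over 2 as well, 4 were lower and 0 higher, beside 9% and 0.196% of all genes (9.2% in all). These 4 were Kif1a, Kif26a, Kif21a and Kif1c, of which 3 are transport motors and 1 is atypical. Kif1a passed the filter on low counts through the FGOs alone, so it could be called only lower. The median log2 fold change was -0.08 over the 32 kinesins, and the 13 division members still held 72.3% ± 1.34 (SD, n = 10) of the summed kinesin RPKM in MII oocytes. Kif12, Kif7, Kif5a, Kif2b and Kif6 had too few counts to be tested.

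Kif26a (chr12:112146208-112181747, plus strand) had 5.27, 53.2 and 111 CPM in the lowest, median and highest wild-type FGO, against 0.899, 3.71 and 8.70 CPM in MII oocytes. All 10 MII libraries lay below the FGO median, and the groups overlapped only through the 4 low FGOs named above. Kif26a was 13.1-fold lower in MII (log2 fold change -3.71 ± 0.45 SE, edgeR adjusted p = 3.38e-09). Within the set under 80% mapped the log2 fold change was -3.84 and within the other set -3.83. The granulosa marker list also fell at this step, with 8 of 11 markers lower, and so did all 5 theca markers and 5 of 7 stroma markers tested, beside 22.6% of all genes. Most markers of those cells thus moved with Kif26a. The granulosa sum itself went from a median of 153 to 120 CPM, and the stroma sum, mostly Myh11, from 341 to 386 CPM. Over the 18 FGOs the level of Kif26a had r = 0.0341 with the theca sum, -0.272 with the granulosa sum and 0.727 with the stroma sum. The part of somatic RNA in the fall of Kif26a was not tested.

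Kif1c (chr11:70700548-70731964, plus strand) was the 1 kinesin whose FGO and MII libraries did not overlap, as was the case for 2.36% of all genes. It had 35.5, 71.8 and 224 CPM in FGOs and 26.4, 28.6 and 33.9 CPM in MII oocytes. The FGO levels were scattered over a wide range, whereas the 10 eggs lay close together. The log2 fold change was -1.49 ± 0.23 (2.80-fold lower, edgeR adjusted p = 1e-06), and without replicate 7 of the FGOs, the highest library, it was -1.31.

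Kif21a (chr15:90933276-91049948, minus strand), a motor that slows microtubule growth at the cortex, had 2.72, 4.73 and 10.6 CPM in FGOs and 0.455, 1.75 and 3.90 CPM in MII oocytes. All 10 MII libraries were below the FGO median, with an overlap at the lower end. It fell by 1.70 on the log2 scale (SE 0.24, edgeR adjusted p = 1.6e-07). Among libraries under 80% mapped (8 FGOs and 3 MII oocytes) the value was -1.04 with an edgeR adjusted p of 0.0613, but the difference between the sets did not pass the test (adjusted p = 0.329).

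Kif1a (chr1:93015464-93101951, minus strand), the synaptic vesicle motor, was rare in FGOs, with 4 to 60 counts per library. In MII oocytes 8 of 10 libraries had none and the others 3 and 5 counts. Its fitted log2 fold change was -4.56 ± 0.60 (edgeR adjusted p = 3.04e-08), a size that rests on these few counts and became -5.56 without replicate 8 of the MII oocytes. No MII library reached the 10 counts that the filter required. Kif1a was thus tested because of its FGO level, and its p-value is no separate support for a fall. In CPM the range was 0.277 to 4.08 with a median of 1.41 in FGOs and 0 to 0.340 in MII oocytes. As for Kif26a, the part of somatic RNA in the falls of Kif1a, Kif21a and Kif1c was not tested.

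The plot of fold changes shows that apart from these 4 the kinesins tested in the main fit moved little, and Kif5b led this smaller group. Kif5b, the main cargo motor of most cells, had 44.7, 79.1 and 146 CPM in FGOs and 38.4, 57.7 and 64.8 CPM in MII oocytes. All 10 MII libraries were below the FGO median, and it was 1.55-fold lower (log2 fold change -0.63 ± 0.12, edgeR adjusted p = 3.6e-05). For the libraries under 80% mapped the edgeR adjusted p was 0.0515 in a fit to these alone and 0.0107 in the fit over both sets. Its paralog Kif5c had 75.1, 147 and 186 CPM in FGOs and 122, 160 and 185 CPM in MII, a log2 fold change of 0.18 that did not pass the test (adjusted p = 0.135).

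**Figure D2:**
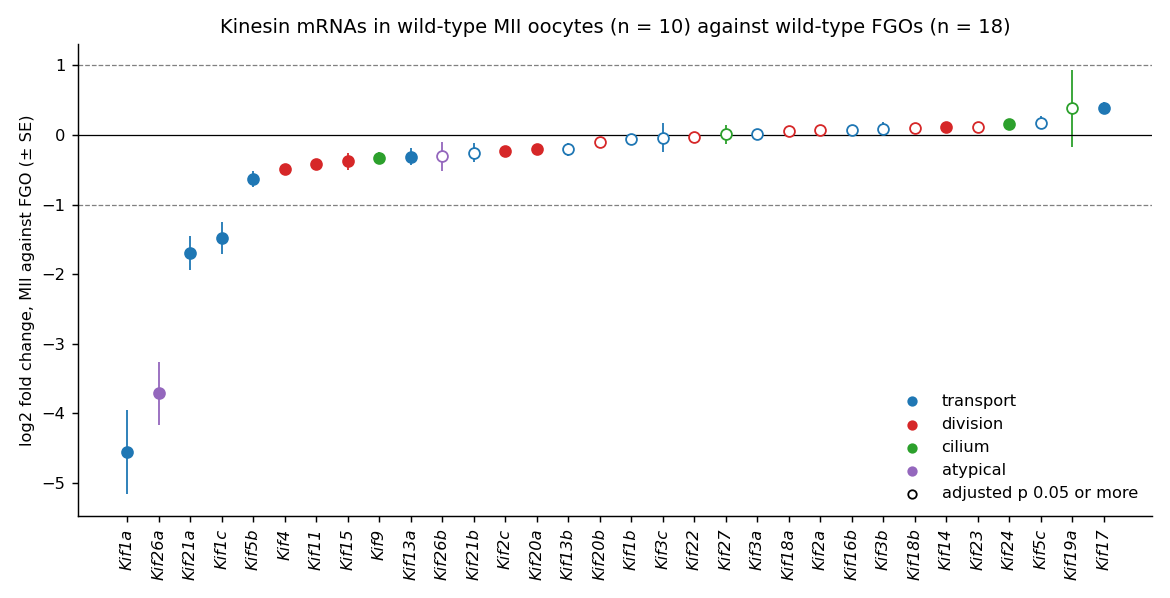
Log2 fold change of the 32 tested kinesins in wild-type MII oocytes (n = 10) against wild-type FGOs (n = 18), with bars for the SE and dashed lines at a fold change of 2. Filled points had an edgeR adjusted p under 0.05, colours are roles, and only Kif1a, Kif26a, Kif21a and Kif1c pass the lower line.

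Among the 12 division kinesins tested, 1 was higher and 5 were lower in MII (50% called, beside 39.1% of all genes), and 0 passed the fold limit, which 9.2% of all genes passed. Kif4 had 393, 542 and 609 CPM in FGOs and 334, 378 and 444 CPM in MII oocytes. All 10 MII libraries lay under the FGO median, with an overlap at the lower end of the FGOs, and it was 1.41-fold lower (log2 fold change -0.49 ± 0.05, edgeR adjusted p = 7.56e-11). The change was -0.50 under and -0.51 above 80% mapped reads. Part of Kif4's exons (15.1% of their length) overlap Pdzd11 on the other strand, and strand was not known to be used in counting.

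Kif11 had 129, 146 and 205 CPM in FGOs and 99.2, 111 and 132 CPM in MII oocytes, so that the groups overlapped only between 129 and 132 CPM. It was 1.34-fold lower (log2 fold change -0.42 ± 0.07, edgeR adjusted p = 3.17e-06). The wild-type FGO sets differed in Kif11 (means of 168 CPM under and 142 CPM above 80% mapped), and the stage difference was -0.62 in the first set and -0.26 in the second (edgeR adjusted p = 9.95e-05 and 0.017), with an adjusted p of 0.219 for the difference between them. Kif2c and Kif20a were lower by less (log2 fold change -0.22 ± 0.06 and -0.20 ± 0.06, edgeR adjusted p = 0.00319 and 0.00579), in 10 of 10 MII libraries each relative to the FGO median. With all 10 MII libraries set against only the FGOs under 80% mapped, Kif2c was not lower, at 0.01. In the fit over both sets Kif2c had -0.06 under and -0.33 above 80% mapped (edgeR adjusted p = 0.542 and 3.3e-05). The difference between the sets had an edgeR adjusted p of 0.19. Kif20a had -0.19 under and -0.22 above 80% mapped in that fit (edgeR adjusted p = 0.0965 and 0.0138). In Kif20a 33.2% of the exon length overlaps Cdc23 on the other strand. Kif15, a plus-end motor that backs up kinesin-5, had a log2 fold change of -0.38 ± 0.12 (edgeR adjusted p = 0.0118). In the fit over both sets it passed in neither, with -0.34 under and -0.37 above 80% mapped (edgeR adjusted p = 0.278 and 0.125).

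The most abundant motor, Kif23, did not pass the test, with 619, 871 and 975 CPM in FGOs and 859, 918 and 961 CPM in MII (log2 fold change 0.12 ± 0.06, edgeR adjusted p = 0.102). Kif20b, Kif22, Kif2a, Kif18a and Kif18b were likewise not called, with log2 fold changes between -0.10 and 0.10. Kif14 was slightly higher, from 536, 657 and 713 CPM in FGOs to 640, 714 and 733 CPM in MII (log2 fold change 0.11 ± 0.04, edgeR adjusted p = 0.0307), with 8 of 10 MII libraries over the FGO median. Its call was lost in fits to the libraries under and above 80% mapped alone (edgeR adjusted p = 0.129 and 0.239) and without replicate 1, 7, 8, 9 or 10 of the MII oocytes (highest adjusted p = 0.0574). In 1 fit over both sets with a stage effect for each, it was 0.17 under 80% mapped (edgeR adjusted p = 0.018) and 0.07 above (adjusted p = 0.212).

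Kif17 (chr4:138250435-138301967, plus strand) had the largest increase among the members called. It had 136, 229 and 307 CPM in FGOs and 248, 307 and 363 CPM in MII oocytes, all 10 of them above the FGO median. It was 1.31-fold higher (log2 fold change 0.39 ± 0.08, edgeR adjusted p = 0.000168). The wild-type FGO sets differed in Kif17, with means of 192 CPM under and 262 CPM above 80% mapped, and the rise was 0.75 on the log2 scale in the first set and 0.19 in the second (edgeR adjusted p = 2.37e-05 and 0.138). The difference between the sets had an edgeR adjusted p of 0.0973.

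Of the cilium-linked members, Kif24 rose by 0.16 ± 0.04 on the log2 scale (96.2, 114 and 132 CPM in FGOs, 103, 128 and 145 CPM in MII, edgeR adjusted p = 0.00245) and Kif9, a sperm flagellum motor, was 1.26-fold lower (18.4, 22.7 and 30.2 CPM against 14.1, 17.6 and 22.9 CPM, edgeR adjusted p = 0.00115). In both the groups overlapped, with 9 of 10 MII libraries on the side named. Kif13a, an endosomal kinesin-3 named here to complete the count, was 1.24-fold lower with an edgeR adjusted p of 0.0436 that 20 of 28 single-library omissions took over 0.05. Kif3a (63.8, 77 and 91.5 CPM against 63.1, 78.8 and 89.7 CPM), Kif16b (92.5, 121 and 131 CPM against 92.0, 125 and 136 CPM) and Kif13b (51.0, 72.4 and 98.8 CPM against 52.6, 66.2 and 73.2 CPM) did not pass the test. No stage difference depended on the library set at an adjusted p under 0.05 for any of the members, beside 23 of 16510 genes.

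**Figure D3:**
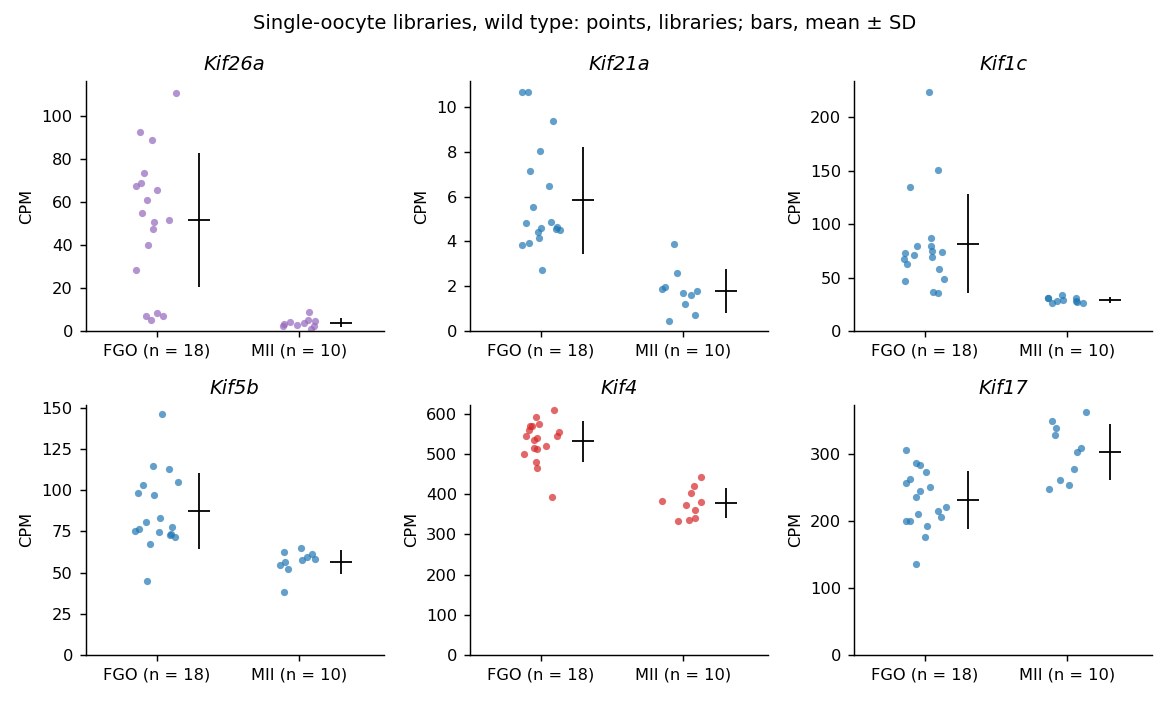
CPM (linear axes from 0) of 6 kinesins in single wild-type FGOs (n = 18) and MII oocytes (n = 10). Points are libraries and bars are means with SD. The Kif1c libraries of the eggs (26.4 to 33.9 CPM) lie under all FGOs, 4 FGOs share the low Kif26a range of the eggs, and Kif17 is higher in the eggs.

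The proteins that work with these motors were read from the same fit. Of 14 tested kinesins outside the symbol rule and kinesin partners, 2 were higher and 5 lower in MII (50% called, beside 39.1% of all genes, 16.5% higher and 22.6% lower). Trak2, which links kinesin-1 to mitochondria, fell by 2.05 on the log2 scale (50.5, 98.6 and 336 CPM in FGOs and 26.3, 29.5 and 31.5 CPM in MII, edgeR adjusted p = 7.2e-09). Klc3, a kinesin light chain, fell by 1.41 from a low level (median 0.992 to 0.505 CPM, edgeR adjusted p = 0.00437). Of 32 spindle and cytokinesis genes, 9 were higher and 5 lower (43.8% called), and only the kinetochore subunit Spc24 by over 2-fold (median 23.8 to 11.7 CPM, log2 fold change -1.03, edgeR adjusted p = 3.94e-12). Of 22 genes of the opposing motor dynein and of dynactin, 6 were higher and 8 lower (63.6% called), and 2 passed the fold limit, which 9.2% of all genes passed. These were the light intermediate chain Dync1li2 (median 33.9 to 15.3 CPM, log2 fold change -1.32, edgeR adjusted p = 3.8e-10) and the cargo adaptor Bicd1 (median 2.38 to 0.369 CPM, log2 fold change -2.56, edgeR adjusted p = 1.19e-05).

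Whether the ADD mutations altered the kinesin store was asked by comparing each mutant with the same 18 wild-type FGOs in 1 edgeR fit over 42 FGO libraries and 15726 genes, so that the comparisons share their controls. The number of kinesins called changed with the wild-type libraries used, and with all 18 of them 1 kinesin differed by more than 2-fold. In the Dnmt3L-ADD FGOs 2 of 32 kinesins were called at an adjusted p under 0.05 (6.25%, beside 6.13% of all genes), 1 higher and 1 lower (3.07% and 3.06% of all genes), and 0 with a fold change over 2 (0.655% of all genes). In the Dnmt3a-ADD FGOs 7 were called (21.9%, beside 15.7%), 4 higher and 3 lower (beside 8.06% and 7.61%), and 1 with the fold limit (beside 2.05%). In the double mutants 5 were called (15.6%, beside 12.2%), 1 higher and 4 lower (beside 5.51% and 6.74%), and 0 with the fold limit (beside 1.65%). With only the wild-type FGOs under 80% mapped the counts of called kinesins were 9 in Dnmt3L-ADD, 12 in Dnmt3a-ADD and 1 in the double mutant, and with only those above 80% mapped they were 4, 10 and 18. In libraries under 80% mapped alone the count was 0 in Dnmt3a-ADD, and leaving out single libraries gave 2 to 10 in the double mutant, the lowest without its replicate 7 and the highest without wild-type replicate 5. The shares of all genes in these other fits are not given here, so the shifts are not read as particular to kinesins. With all libraries, at an unadjusted p under 0.05 the counts were 7, 14 and 15 of 32 kinesins. Beside them stood 3537, 4833 and 4563 of 15726 genes. No kinesin separated the libraries of any mutant from those of the wild type, as 0.089%, 0.312% and 0.178% of all genes did.

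Kif21b (chr1:136131389-136177998, plus strand), a motor that carries cargo in neurons and paces microtubule growth, had the lowest p of all members in a mutant. It had 33.2, 50.3 and 72.5 CPM in wild-type FGOs and 20.6, 23.5 and 45 CPM in double mutants. All 8 double mutant oocytes lay under the wild-type median, and 6 of them under the lowest wild-type library, although the ranges overlapped. Kif21b was 1.88-fold lower (log2 fold change -0.91 ± 0.15, edgeR adjusted p = 0.000133). Against the 8 wild-type FGOs that, like all double mutants, had under 80% of reads mapped, the value was -0.93 when only such libraries were used (edgeR adjusted p = 0.00566). The somatic markers were lower in the double mutant too, with 5 of 5 theca, 6 of 11 granulosa and 6 of 7 stroma markers called, beside 6.74% of all genes. The theca medians given above fell in the same order of FGO groups as the Kif21b fold changes. The summed granulosa medians (153, 130, 127 and 135 CPM in wild-type, Dnmt3L-ADD, Dnmt3a-ADD and double mutant FGOs) and stroma medians (341, 337, 412 and 238 CPM) were not in that order. In the wild-type FGOs under 80% mapped alone, the theca, granulosa and stroma medians were 32.2, 167 and 277 CPM. In MII oocytes, with a theca median of 2.76 CPM, Kif21b was not called (log2 fold change -0.26, edgeR adjusted p = 0.138). Over the wild-type FGOs Kif21b and the theca sum had r = 0.424 (n = 18, r = 0.244 without the 2 outermost libraries), and 0.459 (n = 8) and 0.412 (n = 10) within the sets. With the granulosa and stroma sums r was 0.236 and 0.127 (n = 18). The part of somatic RNA in the Kif21b difference was not tested.

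In the single mutants Kif21b was lower by less. The Dnmt3a-ADD FGOs had 21.1, 34.6 and 63.1 CPM, with 7 of 8 under the wild-type median (log2 fold change -0.54 ± 0.15, edgeR adjusted p = 0.0115). Within the library sets of Dnmt3a-ADD the values were -0.72 under and -0.44 above 80% mapped, with edgeR adjusted p = 0.058 and 0.138. The Dnmt3L-ADD FGOs had 38.5, 42.4 and 55.6 CPM and did not pass the test (-0.25 ± 0.15, adjusted p = 0.314). The double mutant was lower than Dnmt3L-ADD by a log2 difference of -0.66 ± 0.17 (edgeR adjusted p = 0.00602, a comparison that called 24.2% of all genes and in which the library sets cannot be told apart from genotype). Its difference from Dnmt3a-ADD was -0.37 ± 0.17 (adjusted p = 0.0979, with 30.9% of all genes called), and the 2 single mutants differed by -0.29 ± 0.17 (adjusted p = 0.845, with 0.0127% called).

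**Figure D4:**
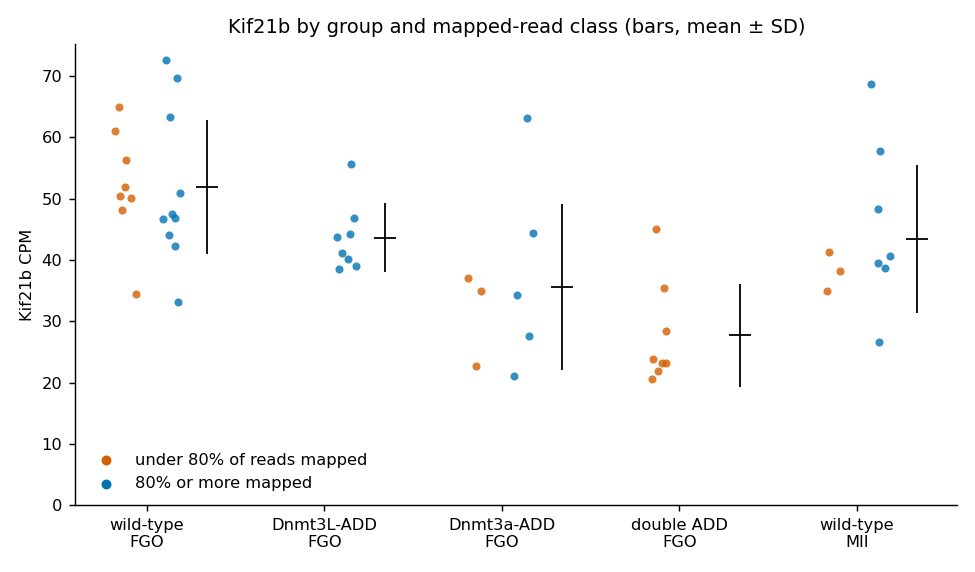
Kif21b level (CPM, linear axis from 0) in each oocyte library by group, with colours for the mapped-read set and bars for mean and SD. The 8 double mutants sit at 20.6 to 45 CPM against 33.2 to 72.5 CPM in wild-type FGOs, whose sets under and above 80% mapped have means of 52.2 and 51.7 CPM.

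The other double mutant calls were lost when only wild-type libraries under 80% mapped, as all the double mutants were, were used. Kif11 was 1.21-fold higher (156, 185 and 229 CPM against 129, 146 and 205 CPM, log2 fold change 0.28 ± 0.07, edgeR adjusted p = 0.0124), with all 8 libraries over the wild-type median. Wild-type libraries under 80% mapped were themselves higher in Kif11 (means of 168 and 142 CPM), and within that set the change was 0.14 (edgeR adjusted p = 0.705). Without replicate 4 of the double mutants the edgeR adjusted p was 0.0545. Kif3c, a rare kinesin-2 subunit, fell by 0.64 (0.829, 1.65 and 2.53 CPM against 0.439, 1.09 and 1.43 CPM, edgeR adjusted p = 0.0304), and within the set the value was -0.45 (adjusted p = 0.658). Its call was also lost without replicate 2, 7 or 8 of the double mutants (highest adjusted p = 0.0707). Kif2a and Kif24 were lower by 1.11-fold and 1.10-fold (log2 fold change -0.16 ± 0.05 and -0.14 ± 0.05, edgeR adjusted p = 0.0413 and 0.0429), and within the set the values were -0.06 and -0.10 (adjusted p = 0.807 and 0.547). Their calls were lost in 17 and 16 of 26 omissions of single libraries. Kif3c, Kif2a and Kif24 were lower than the wild-type median in 8, 8 and 7 of 8 libraries, and all of these groups overlapped. Exons of Kif3c (35.3%) and Kif2a (17.4%) overlap a gene on the other strand.

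In the Dnmt3a-ADD FGOs the 1 member past the fold limit was Kif1a, at 0.277, 1.41 and 4.08 CPM in wild-type and 0, 0.410 and 1.34 CPM in mutant FGOs. All 8 mutants were below the wild-type median with an overlap, at 0 to 26 counts per library. It was 2.58-fold lower (log2 fold change -1.37 ± 0.45, edgeR adjusted p = 0.0309), a call lost without replicate 1, 2, 5, 6 or 7 of the mutants (highest adjusted p = 0.0714) and within the libraries above 80% mapped (adjusted p = 0.187). Kif18b was lower by 0.21 on the log2 scale (25.1, 30.6 and 35.4 CPM against 24.2, 26.8 and 28.8 CPM, edgeR adjusted p = 0.0141), below the wild-type median in 8 of 8 oocytes.

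The members higher in Dnmt3a-ADD were Kif22, Kif9, Kif23 and Kif16b. Kif22 had 174, 264.5 and 347 CPM in wild-type and 249, 332.5 and 364 CPM in mutant FGOs (1.25-fold, edgeR adjusted p = 0.0104), with 7 of 8 over the wild-type median. Kif9 had 18.4, 22.7 and 30.2 CPM against 26.1, 28.8 and 31.2 CPM (1.24-fold, edgeR adjusted p = 0.0114), and Kif23 had 619, 871 and 975 CPM against 899.8, 1003 and 1090 CPM (1.19-fold, edgeR adjusted p = 0.013). In Kif9 and Kif23 all 8 mutants were above the wild-type median, and the groups overlapped. Within the set under 80% mapped (3 mutants) the log2 fold change was 0.49 for Kif22, 0.41 for Kif23 and 0.25 for Kif9 (edgeR adjusted p = 0.0842, 0.0563 and 0.269). Within the set above 80% mapped it was 0.19 for Kif22, 0.14 for Kif23 and 0.34 for Kif9 (edgeR adjusted p = 0.0514, 0.0921 and 0.0406). Kif22 and Kif23 ran opposite to the oocyte marker sum over the 18 wild-type FGOs (r = -0.82 and -0.719), within the set under 80% mapped (r = -0.866 and -0.805, n = 8) but not above it (r = 0.251 and -0.154, n = 10). That sum was lower in Dnmt3a-ADD and higher in the double mutant than in the wild type, as given above, and its part in these differences was not tested. Kif16b was 1.13-fold higher with an edgeR adjusted p of 0.0492, which rose over 0.05 in 24 of 26 omissions.

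In the Dnmt3L-ADD FGOs Kif5b was 1.41-fold higher, with 99.2, 113 and 154 CPM against 44.7, 79.1 and 146 CPM in the wild type (log2 fold change 0.50 ± 0.13, edgeR adjusted p = 0.0165). All 8 mutants lay over the wild-type median, with overlap among the upper wild-type libraries. When only libraries above 80% mapped were used in every group, it was 0.43 (edgeR adjusted p = 0.00754). With the library set as a covariate the edgeR adjusted p was 0.0676, and without replicate 3 of the mutants it was 0.0505. Kif24 fell by 0.17 ± 0.05 (edgeR adjusted p = 0.0195), in 7 of 8 libraries, from 96.2, 114 and 132 CPM to 85.9, 102 and 117 CPM, and without replicate 5 of the mutants the edgeR adjusted p was 0.0561. In Dnmt3a-ADD and double mutants Kif5b did not pass the test (log2 fold change -0.10 and -0.04, adjusted p = 0.638 and 0.852).

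**Figure D5:**
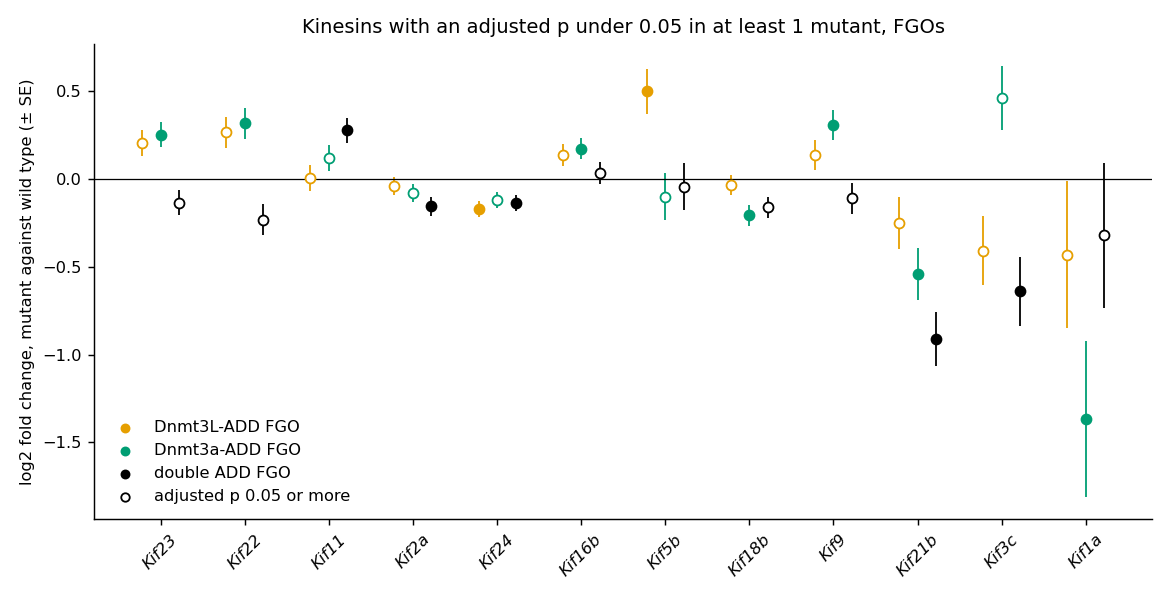
Log2 fold change against wild-type FGOs (n = 18), with SE, of the 12 kinesins called in at least 1 mutant (n = 8 each). Filled points had an edgeR adjusted p under 0.05. Kif21b lies below 0 in all 3 mutants. The values of the more abundant Kif23 and Kif22 lie above 0 in the single mutants and below 0 in the double mutant. In the double mutant neither passed the test (edgeR adjusted p = 0.212 and 0.0759), and all its libraries were in the lower mapped-read set. Wild-type FGOs of that set had mean Kif23 and Kif22 levels of 761 and 244 CPM, beside 771 and 221 CPM in the double mutant.

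Division motors held 73.4% ± 0.973, 74.4% ± 1.51 and 73.8% ± 1.52 (SD, n = 8) of the summed kinesin RPKM in Dnmt3L-ADD, Dnmt3a-ADD and double mutant FGOs. The sum itself was 725 ± 59.4 RPKM in wild-type FGOs, 779 ± 22.9 in Dnmt3L-ADD, 775 ± 32.0 in Dnmt3a-ADD and 679 ± 41.0 RPKM in the double mutant. The wild-type sets themselves had sums of 671 ± 44.2 RPKM under and 768 ± 20.7 RPKM above 80% mapped. No partner gene passed both limits in a mutant. In the double mutant, whose libraries were all under 80% mapped, 2 of the 32 spindle and cytokinesis genes were higher and 9 lower (34.4% called, beside 12.2% of all genes). The counts were 5 higher and 2 lower in Dnmt3a-ADD (21.9%, beside 15.7%) and 1 higher and 0 lower in Dnmt3L-ADD (3.12%, beside 6.13%). Of the dynein and dynactin genes 22.7%, 22.7% and 18.2% were called in Dnmt3L-ADD, Dnmt3a-ADD and the double mutant. Of the kinesins outside the symbol rule and kinesin partners 21.4%, 21.4% and 14.3% were called.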

How the data were processed

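The authors made 1 library per oocyte with the SMART-Seq HT kit, aligned paired-end reads to mm10 with STAR and deposited raw read counts per gene, 1 table per oocyte. Counter (featureCounts by the file headers, with HTSeq also named), strand setting and annotation release were not settled by the sources. The deposited embryo tables and their 14 columns of per-sample values were not used. Groups and replicates came from the labels, and each oocyte was 1 replicate. No library pair within a group agreed within sampling noise (lowest chi-square per degree of freedom, 5.388).

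Counts were analysed with edgeR 4.0.16 in R 4.3.3 by its quasi-likelihood test after TMM scaling, p-values being adjusted over all genes tested (Benjamini-Hochberg), and filterByExpr required 10 counts. Mutants were fitted over 42 FGO libraries (15726 genes) and MII oocytes over 52 libraries (15784 genes). CPM and RPKM used TMM-scaled library sizes and the tables' exon lengths. The test was tried on simulated data. DESeq2 1.42.0 and other alternatives are given at the end. Named members were those of at least 10 RPKM in wild-type FGOs, the 3 highest of each level class and, per comparison, those called with a fold change over 2 and the 5 of lowest p in each direction. Named partners were those called with a fold change over 2. The members, roles and lists were chosen with earlier results of these data known. Counting error alone would allow up to 3 counts where a library has 0.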

Additional observations from a re-analysis of the deposited data

Results flagged for a closer look

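A single library stood apart from the rest of its group, by the gap to its nearest neighbour relative to the range of the group, in 9 of 128 pairs of a kinesin and a group of 8 or 10 oocytes. Chance alone gives such a gap in about 1 of 20 groups. In MII oocytes, replicate 5 was low in Kif5b (38.37 CPM, with the next at 52.3 CPM), in Kif16b (91.98 CPM, next 118.5 CPM) and in Kif1b (105.4 CPM, next 120.9 CPM), and replicate 4 was high in Kif3c (4.359 CPM, next 2.015 CPM). In Dnmt3a-ADD FGOs, replicate 4 was high in Kif1c (109.9 CPM, next 68.01 CPM) and in Kif13b (114.3 CPM, next 87.21 CPM). In Dnmt3L-ADD FGOs, replicate 2 was high in Kif13b (114.5 CPM, next 87.61 CPM). In double mutant FGOs, replicate 4 was high in Kif18b (35.28 CPM, next 28.23 CPM) and replicate 2 in the rare Kif19a (1.245 CPM, next 0.4651 CPM).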

How the results depend on the processing

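The 15 kinesins called between MII oocytes and FGOs became 6 in libraries under 80% mapped alone, and Kif2c turned to 0.01032 on the log2 scale (adjusted p = 0.894) against wild-type FGOs under 80% mapped. The 2 calls in Dnmt3L-ADD became 1 without the filter on low counts, 1 with only the groups compared, 4 with DESeq2, 4 with wild-type FGOs or with all libraries above 80% mapped, and 9 with wild-type FGOs under 80% mapped. The 7 calls in Dnmt3a-ADD became 4 without the filter, 12 with wild-type FGOs under 80% mapped and 0 with only libraries under 80% mapped, and the 1 with a fold change over 2 became 0 without the filter, in libraries under 80% mapped and with only the groups compared. The 5 calls in the double mutant became 2 without the filter and with only the groups compared, 1 with wild-type FGOs or all libraries under 80% mapped and with the library set as a covariate, 9 with DESeq2, and 18 with wild-type FGOs above 80% mapped, where 1 passed the fold limit. Omitting single libraries gave 13 to 16 calls (4 to 4 with the fold limit) for MII, 1 to 4 (0 to 0) for Dnmt3L-ADD, lowest without its replicate 3, 5 to 8 (0 to 1) for Dnmt3a-ADD, and 2 to 10 (0 to 1) for the double mutant, lowest without its replicate 7 and highest without wild-type replicate 5. The shares of all genes called under these settings are not given, so the shifts are not read as particular to kinesins. The causes were not tested.

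The deviations of same-numbered libraries from their group means correlated over 0.1 in 3 of 8 pairs of wild-type with Dnmt3L-ADD FGOs, in 5 of 8 with Dnmt3a-ADD, in 2 of 8 with the double mutant and in 3 of 10 with MII oocytes. Since no comparison had every pair over 0.1, the numbers were not taken to pair the libraries. With the replicate block the calls numbered 8 in Dnmt3L-ADD, 12 in Dnmt3a-ADD and 1 in the double mutant, again without the share of all genes. Kinesins under 1 RPKM rest on few counts per oocyte.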
